A study of Mus musculus with 12 samples.

Results

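The endothelial and angiogenic genes are a set of 10 genes, chosen by name from the 21965 genes in the count table: Kdr, Flt1, Tek, Cdh5, Eng, Vegfc, Angpt1, Angpt2, Apln and Esm1. The genes were picked by name and not by a threshold on their values, although earlier results of these data were known at the time. All 10 genes had enough counts to be tested, among 15046 genes tested in all.

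Gene expression was measured by polyA RNA-seq in gingival tissue from mice under 12 weeks of age. A silk ligature tied around a maxillary molar holds bacteria against the gum and inflames the tissue, and the ligated groups were collected 8 days after placement, while the naive groups carried no ligature. The 4 groups were WT naive (C57BL/6 wild type, no ligature), WT ligated (C57BL/6 wild type, ligature), CybbKO naive (Cybb-/-, no ligature) and CybbKO ligated (Cybb-/-, ligature), each with 3 libraries. The series describes 3 age- and sex-matched mice per group, the Cybb-/- deletion is not restricted to one cell type, and no further agent was given to any group.

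Endothelial cells line blood and lymphatic vessels, and new vessels grow from them by sprouting. VEGF ligands drive sprouting through the receptor tyrosine kinases encoded by Kdr (VEGFR2), Flt1 (VEGFR1) and Flt4 (VEGFR3), while the angiopoietins act on the receptor encoded by Tek (Tie2): Angpt1 activates it and steadies vessels, and Angpt2, which endothelial cells release on activation, can oppose Angpt1. Inflamed gum is known for dilated and more numerous vessels, which carry leukocytes to the tooth surface.

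Promoter sequences of 7 of the 10 genes were found in RefSeq (GRCm38.p6), each read 5′ to 3′ on the strand of its gene and covering the 250 bases before the annotated start; Kdr, Flt1, Tek, Vegfc, Eng, Apln and Esm1 matched. They were searched on both strands for GGAAG, the core bound by ETS factors, which act in endothelial genes as well as in many others. The 4 promoters that held it are shown because their genes were among the 9 that rose with ligation, and capitals mark each GGAAG or its reverse complement CTTCC. They lay at chr5:75978456-75978705 on the minus strand, chr5:147726012-147726261 on the minus strand, chr2:32646345-32646594 on the plus strand and chrX:48034854-48035103 on the minus strand.
Kdr: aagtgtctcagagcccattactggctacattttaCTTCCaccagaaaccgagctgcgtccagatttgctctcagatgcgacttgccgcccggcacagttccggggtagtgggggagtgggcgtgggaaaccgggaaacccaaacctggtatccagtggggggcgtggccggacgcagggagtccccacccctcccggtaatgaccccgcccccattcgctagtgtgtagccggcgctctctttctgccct
Flt1: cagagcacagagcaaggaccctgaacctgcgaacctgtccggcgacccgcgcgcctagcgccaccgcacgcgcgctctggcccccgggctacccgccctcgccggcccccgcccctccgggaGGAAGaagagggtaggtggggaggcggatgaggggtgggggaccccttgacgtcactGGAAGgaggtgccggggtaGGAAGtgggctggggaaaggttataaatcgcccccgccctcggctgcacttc
Eng: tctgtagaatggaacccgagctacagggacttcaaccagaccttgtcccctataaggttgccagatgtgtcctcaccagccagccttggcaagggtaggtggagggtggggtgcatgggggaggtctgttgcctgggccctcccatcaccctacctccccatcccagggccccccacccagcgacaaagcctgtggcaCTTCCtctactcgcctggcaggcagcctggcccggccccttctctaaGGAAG
Apln: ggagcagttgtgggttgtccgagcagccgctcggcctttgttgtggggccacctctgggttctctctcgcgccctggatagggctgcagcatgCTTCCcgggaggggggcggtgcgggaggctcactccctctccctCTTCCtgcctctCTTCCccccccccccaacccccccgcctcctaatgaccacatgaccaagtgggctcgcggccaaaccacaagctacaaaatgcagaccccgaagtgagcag
The Kdr promoter held 1 match, Flt1 held 3, Eng held 2 and Apln held 3, while Tek, Vegfc and Esm1 held 0. A match was common, since 63.6% of the 27025 mouse promoters of the same length held GGAAG. CGTG, the core of the hypoxia response element, was in Kdr, Flt1, Tek and Esm1 and in 55.5% of all promoters. The GC box GGGCGG was in Kdr, Flt1, Vegfc and Apln and in 32.9% of all, and TATAAA was in Flt1 alone of the 7 and in 13% of all; no match of one motif overlapped a match of another in these 7 promoters. These matches describe letters in the window and not bound sites.

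Library totals ran from 27958819 to 42613423 counts. Cybb, the targeted gene, was higher in the libraries labelled CybbKO (41.6 to 63.7 CPM, counts scaled to library size) than in the WT libraries (4.19 to 15.2 CPM), which goes against a reduced transcript, so CybbKO naive and CybbKO ligated below mean the libraries labelled as such. The tissue label fitted the markers: 10 oral epithelial genes summed to between 76341 and 145857 CPM per library. Some libraries stood apart: CybbKO ligated replicate 2 held fewer fibroblast marker counts than the other ligated libraries (4008 against 5124 to 10601 CPM summed over 9 genes) and 44 CPM of the Y-linked gene Eif2s3y against 79.7 to 128 CPM elsewhere; WT ligated replicate 3 was highest of its group for 9 of the 10 genes; and WT naive replicate 3 held 29371 CPM of salivary gland markers against 63.7 to 5086 CPM elsewhere. Bulk tissue was measured, so more endothelial cells and more RNA per cell, or fewer and less, cannot be told apart.

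Kdr and Flt1 encode the receptors for VEGF-A, Kdr the main signalling receptor and Flt1 a high-affinity receptor that also acts as a decoy. Kdr was at 20.9, 24.6 and 23.3 CPM in the WT naive libraries and at 35.3, 38.8 and 64.3 CPM in the WT ligated libraries. In the libraries labelled CybbKO it was at 22.3, 20.9 and 25 CPM without ligature and at 53, 32.6 and 54.9 CPM with it. All 6 ligated libraries lay above all 6 naive libraries, and the naive groups spanned a narrow range beside the ligated ones. The log2 fold change over both genotypes, that is the mean of the WT and the CybbKO response, was 1.03 ± 0.17 (SE), a 2.04-fold rise (edgeR quasi-likelihood test, Benjamini-Hochberg adjusted p = 0.0016). Flt1 was at 28.9, 29.5 and 26.5 CPM in WT naive and 34.9, 41.7 and 57.5 CPM in WT ligated libraries. It was at 28, 32.4 and 36.2 CPM in CybbKO naive and 53, 34.7 and 52.7 CPM in CybbKO ligated libraries. The groups were apart in WT, but CybbKO ligated replicate 2 fell inside the CybbKO naive range. Flt1 rose by less than Kdr in the point estimate, with a log2 fold change of 0.60 ± 0.14 (SE) over both genotypes (edgeR adjusted p = 0.0112), and the difference between the genes was not tested.

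Tek encodes the angiopoietin receptor Tie2, Cdh5 the cadherin of endothelial junctions (VE-cadherin), and Eng the TGF-beta co-receptor endoglin. Tek was at 11, 12.4 and 9.99 CPM in WT naive, 17.3, 18.7 and 27.6 CPM in WT ligated, 10.6, 13.3 and 13.7 CPM in CybbKO naive, and 29.9, 16.9 and 29.3 CPM in CybbKO ligated libraries. Every ligated library exceeded every naive one. The log2 fold change over both genotypes was 0.97 ± 0.17 (SE), a 1.97-fold rise (edgeR adjusted p = 0.00217). Cdh5 was at 13.5, 19.9 and 20.9 CPM in WT naive, 37.8, 40.4 and 49 CPM in WT ligated, 17.8, 18.1 and 22.5 CPM in CybbKO naive, and 56, 37.2 and 61.2 CPM in CybbKO ligated libraries. The lowest ligated library stood well clear of the highest naive one, in both genotypes. Cdh5 had the lowest adjusted p of the 10 genes, at 0.000299 in edgeR, with a log2 fold change of 1.31 ± 0.15 (SE), a 2.49-fold rise. Eng was at 12.1, 19.2 and 26.7 CPM in WT naive, 24.1, 32.6 and 32.4 CPM in WT ligated, 25, 14.5 and 22.3 CPM in CybbKO naive, and 42.1, 33 and 35.3 CPM in CybbKO ligated libraries. WT naive replicate 3 overlapped the WT ligated group, and the naive libraries of Eng were more spread than those of the other receptors. Eng rose by 0.73 ± 0.19 (SE) on the log2 scale over both genotypes (edgeR adjusted p = 0.018).

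Vegfc encodes the ligand that acts mainly through Flt4 on lymphatic endothelium. It was at 6.03, 5.12 and 4.26 CPM in WT naive, 6.32, 7.82 and 12 CPM in WT ligated, 5.2, 5.41 and 6.86 CPM in CybbKO naive, and 9.01, 7.12 and 12.4 CPM in CybbKO ligated libraries. Within each genotype the groups did not overlap, although the nearest libraries were close in both genotypes. Vegfc rose by 0.74 ± 0.20 (SE) on the log2 scale over both genotypes (edgeR adjusted p = 0.0183), and passed the threshold in neither genotype alone (adjusted p = 0.153 in WT and 0.116 in the libraries labelled CybbKO, edgeR).

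Of the angiopoietins, Angpt2 was at 2.62, 2.66 and 1.9 CPM in WT naive, 3.68, 5.89 and 7.03 CPM in WT ligated, 1.9, 2.55 and 1.77 CPM in CybbKO naive, and 8.59, 4.73 and 11.4 CPM in CybbKO ligated libraries. All ligated libraries lay above all naive ones, by the widest margin in CybbKO ligated replicate 3. The log2 fold change over both genotypes was 1.60 ± 0.24 (SE), a 3.03-fold rise (edgeR adjusted p = 0.00108). Angpt1, by contrast, was at 8.01, 6.61 and 5.98 CPM in WT naive and 6.02, 6.88 and 9.5 CPM in WT ligated libraries, so the WT groups overlapped, with WT ligated replicate 3 alone above the WT naive range. It was at 4.07, 5.55 and 5.25 CPM in CybbKO naive and 15, 6.85 and 13.7 CPM in CybbKO ligated libraries, with no overlap. The log2 fold change of Angpt1 was 0.12 ± 0.29 (SE) in WT (edgeR adjusted p = 0.858) and 1.26 ± 0.29 (SE) in the libraries labelled CybbKO (edgeR adjusted p = 0.0163), and its rise over both genotypes, 0.69 ± 0.20 (SE), passed the threshold (adjusted p = 0.0294) but not in 8 of the alternative settings, namely with replicate number as a block (adjusted p = 0.055) and when any of 7 libraries was left out, WT ligated replicate 3 among them (adjusted p = 0.0748).

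Apln encodes apelin, the secreted ligand of the receptor Aplnr, made by sprouting endothelium among other cells, and Esm1 encodes endocan, a proteoglycan often used as a marker of the leading tip cell of a sprout. Apln was at 1.46, 1.01 and 1.6 CPM in WT naive, 4.56, 5.23 and 6.64 CPM in WT ligated, 1.13, 0.999 and 1.34 CPM in CybbKO naive, and 7.31, 3.26 and 12.1 CPM in CybbKO ligated libraries. No naive library reached any ligated one. With a log2 fold change of 2.36 ± 0.29 (SE) over both genotypes, a 5.13-fold rise, Apln had the largest estimate of the 10 genes (edgeR adjusted p = 0.000368). Esm1 was at 4.57, 4.55 and 3.75 CPM in WT naive, 3.68, 5.86 and 10.9 CPM in WT ligated, 3.84, 5.69 and 6.01 CPM in CybbKO naive, and 8.56, 4.73 and 8.95 CPM in CybbKO ligated libraries. The groups overlapped in both genotypes, since WT ligated replicate 1 was below all 3 WT naive libraries and CybbKO ligated replicate 2 was inside the CybbKO naive range. Esm1 was the 1 gene of the 10 that did not pass the test over both genotypes, with a log2 fold change of 0.59 ± 0.26 (SE) and an edgeR adjusted p of 0.121.

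**Figure D1:**
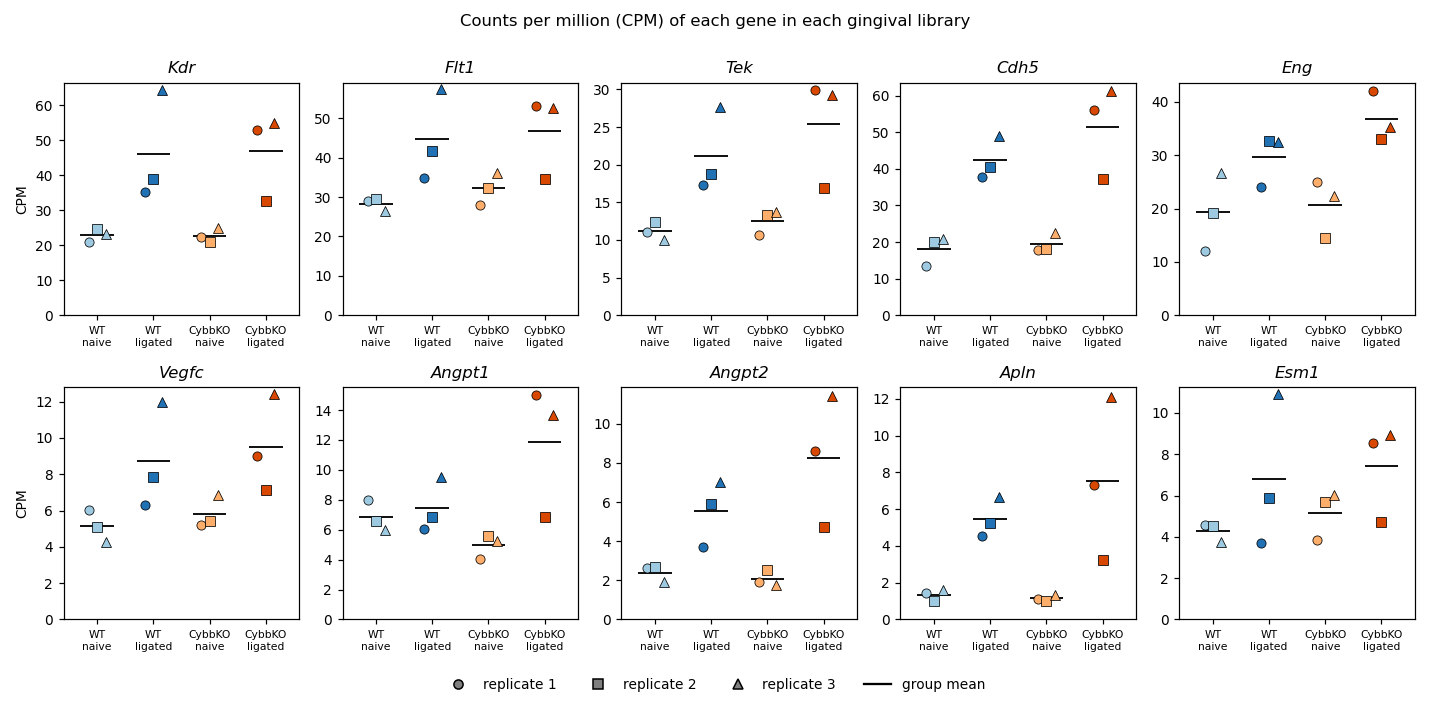
CPM (vertical axes, from 0) of the 10 genes in each of the 12 gingival libraries, by group on the horizontal axis; marker shapes give the replicate number and lines the group means. Kdr, Tek, Cdh5, Angpt2 and Apln show every ligated library above every naive one, and CybbKO ligated replicate 2 (square) is the lowest of its group for all 10 genes.

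Over both genotypes, 9 of the 10 genes were called higher in ligated tissue, where 14.7% of all genes tested were called higher. The median log2 fold change of the 10 genes was 0.86, against -0.03 over all genes tested. For 5 of the 10 genes (Kdr, Tek, Cdh5, Angpt2 and Apln) all 6 ligated libraries exceeded all 6 naive ones, which held for 6.73% of all genes. The count was 9 without CybbKO ligated replicate 2, 8 without WT ligated replicate 3 and 8 without WT naive replicate 3.

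In WT, 3 of the 10 genes were called higher after ligation, namely Apln, Cdh5 and Kdr, where 2.31% of all genes were called higher. The log2 fold changes were 2.01 ± 0.41 (SE) for Apln, 1.23 ± 0.22 for Cdh5 and 1.01 ± 0.24 for Kdr, with edgeR adjusted p of 0.0274, 0.0165 and 0.0462. The estimates of the other 7 genes were also above 0, from 0.12 for Angpt1 to 1.21 for Angpt2, and the libraries of 7 genes did not overlap, which held for 13.3% of all genes. The WT calls changed with the libraries kept: the count was 0 without WT ligated replicate 3, WT naive replicate 1 or WT naive replicate 2. In these settings, in that order, the WT calls of all genes in either direction fell from 481 to 120, 113 and 27. The count was 1 without WT ligated replicate 2, and 6 without CybbKO ligated replicate 2, which enters through the shared estimate of the spread. With any one library left out, the WT log2 fold change ran from 1.05 to 1.34 for Cdh5, 1.84 to 2.16 for Apln and 0.69 to 1.21 for Kdr. DESeq2 called 6 of the 10 genes, and with replicate number as a block Kdr was no longer called (edgeR adjusted p = 0.0558).

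Ligation raised 6 of the 10 genes past the threshold among the libraries labelled CybbKO (Apln, Angpt2, Cdh5, Angpt1, Kdr and Tek), where 9.95% of all genes were called higher. Apln rose 6.53-fold (log2 2.71 ± 0.41 SE, edgeR adjusted p = 0.00279) and Angpt2 rose 3.97-fold (log2 1.99 ± 0.35 SE, edgeR adjusted p = 0.0046). Cdh5 rose by 1.40 ± 0.22 (SE), Kdr by 1.04 ± 0.24 and Tek by 1.02 ± 0.24 on the log2 scale, with edgeR adjusted p of 0.00285, 0.0159 and 0.0177. The 4 genes not called were Eng, Vegfc, Flt1 and Esm1, with log2 fold changes of 0.84, 0.71, 0.54 and 0.52. The libraries of 8 genes did not overlap, which held for 18.5% of all genes. CybbKO ligated replicate 2 was the lowest of its 3 libraries for all 10 genes, which held for 47.2% of all genes, and without it 7 genes were called; without CybbKO ligated replicate 1 or 3, or CybbKO naive replicate 1, 3 were called. WT ligated replicate 3 was the highest of its 3 for 9 of the 10 genes, all but Eng, which held for 39.5% of all genes.

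**Figure D2:**
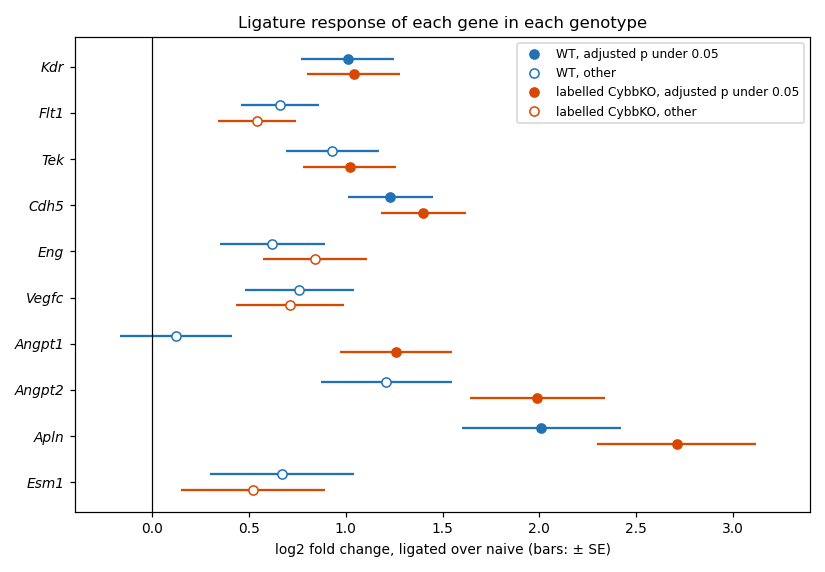
Log2 fold change of ligated over naive tissue (horizontal axis; bars are ± SE) for the 10 genes, in WT (blue) and in the libraries labelled CybbKO (orange); filled points passed an adjusted p of 0.05 in edgeR. All 20 estimates lie above 0, and Angpt1 has the widest distance between the genotypes, 0.12 in WT and 1.26 in the libraries labelled CybbKO.

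Whether the genotypes differed was tested directly. In ligated tissue 0 of the 10 genes were called between CybbKO and WT by edgeR and 0 by DESeq2, where 0.00665% of all genes were called by edgeR, and 1 of the 10 had an unadjusted p under 0.05, against 3.34% of all genes. All 10 estimates were above 0, as were those of 53.4% of all genes, and ran from 0.02 ± 0.24 (SE) for Kdr to 0.67 ± 0.29 for Angpt1 on the log2 scale, and the next highest were Angpt2 at 0.58 ± 0.33 and Apln at 0.46 ± 0.38. Eng was the 1 gene of the 10 whose groups did not overlap, which held in either direction for 7.84% of all genes; it was at 33 to 42.1 CPM in CybbKO ligated and 24.1 to 32.6 CPM in WT ligated libraries, with a log2 difference of 0.31 ± 0.27 (SE) and an exact two-sided permutation p of 0.1, the smallest that 3 against 3 allows. The standard errors of the 10 differences were 0.20 to 0.38 in log2 units.

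In naive tissue 0 of the 10 genes were called between the genotypes by edgeR and 0 by DESeq2, where 0.00665% of all genes were called by edgeR, and 0 of the 10 had an unadjusted p under 0.05, against 2.03% of all genes. The log2 differences ran from -0.47 ± 0.29 (SE) for Angpt1 to 0.27 ± 0.37 for Esm1. Angpt1 was the 1 gene of the 10 without overlap, which held in either direction for 5.11% of all genes; it was at 5.98 to 8.01 CPM in WT naive and 4.07 to 5.55 CPM in CybbKO naive libraries (exact two-sided permutation p = 0.1).

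The interaction test, which sets the ligature responses of the genotypes against each other, called 0 of the 10 genes by edgeR and by DESeq2, where 0% of all genes were called, and 1 of the 10 had an unadjusted p under 0.05, against 2.27% of all genes. The difference was largest for Angpt1, whose response was higher in the libraries labelled CybbKO by 1.14 ± 0.41 (SE) on the log2 scale (unadjusted p = 0.0165, edgeR adjusted p = 1). For Kdr it was 0.03 ± 0.34 and for Cdh5 0.17 ± 0.30. Angpt1 therefore passed the threshold in one genotype and not in the other without a tested difference between them after adjustment.

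Levels were set against each other per kilobase of exon. In WT naive tissue Eng (4.78 ± 1.81 CPM per kb, SD, n = 3) and Cdh5 (4.31 ± 0.96) stood highest, and their ranges overlapped. Kdr at 2.54, Tek at 2.36, Vegfc at 2.1, Flt1 at 2.1 and Esm1 at 2.05 CPM per kb followed, each with a range that overlapped the next. Angpt1 at 1.32, Angpt2 at 0.648 and Apln at 0.432 CPM per kb came last, each apart from the gene above it. In WT ligated tissue Cdh5 stood first at 10.1 ± 1.39 CPM per kb, above the range of Eng at 7.34 ± 1.2. The bottom 3 genes, Apln at 1.74, Angpt2 at 1.5 and Angpt1 at 1.43 CPM per kb, overlapped one another there, so the order seen in naive tissue was not resolved there. In the CybbKO ligated libraries the same 3 genes were lowest, at 2.4, 2.28 and 2.24 CPM per kb for Apln, Angpt1 and Angpt2.

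Ratios of counts within a library do not depend on scaling. The log2 ratio of Angpt2 to Angpt1 was -1.61, -1.31 and -1.65 in WT naive and -0.71, -0.22 and -0.43 in WT ligated libraries. It was -1.09, -1.12 and -1.56 in CybbKO naive and -0.80, -0.53 and -0.26 in CybbKO ligated libraries. The ratio was higher in all 6 ligated than in all 6 naive libraries, by 0.90 on the log2 scale over both genotypes (exact two-sided permutation within genotype, p = 0.005, the smallest possible, adjusted p = 0.0375 over 15 comparisons). The shift was 1.07 in WT and 0.72 in the libraries labelled CybbKO, each with an exact permutation p of 0.1, the smallest that 3 against 3 allows. The shift toward Angpt2 thus passed over both genotypes and in neither alone (adjusted p = 0.15 in each). With any one library left out the shift stayed between 0.82 and 0.96. The adjusted p of the permutation test was 0.05 to 0.075 without WT ligated replicate 1 or 2 or any one CybbKO naive library. The call was lost in those settings.

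Other ratios were taken to Cdh5 in the same library. Cdh5 itself rose more (1.31 on the log2 scale) than any of 26 further endothelial identity genes (median 0.87, highest 1.15), so these ratios are relative to Cdh5 and not to endothelial RNA as a whole, and the log2 fold change of Kdr, 1.03, was above that median although below Cdh5. Relative to Cdh5, Apln was higher by 0.95 on the log2 scale over both genotypes (exact permutation p = 0.005, adjusted p = 0.0375), with no overlap within either genotype. The shift stayed between 0.80 and 1.09 with any one library left out. Its call was lost without the same libraries as that of Angpt2 to Angpt1. The log2 ratio of Esm1 to Cdh5 differed by -0.80 (exact permutation p = 0.01, adjusted p = 0.05), which did not come under the threshold; the ratio lay lower in all 3 CybbKO ligated than in all 3 CybbKO naive libraries, and the WT libraries overlapped. Kdr was lower relative to Cdh5 by 0.33 on the log2 scale with an adjusted p of 0.075 (exact permutation p = 0.02). The ratio of Angpt2 to Cdh5 moved by 0.23 on the log2 scale (exact permutation p = 0.365), and its libraries overlapped in both genotypes. The direction of each of these over both genotypes was the same whichever library was left out, with shifts of -0.95 to -0.65 for Esm1 and -0.40 to -0.26 for Kdr. For Esm1 and Kdr the adjusted p of the permutation test was 0.0375 without WT ligated replicate 3. That library was the highest WT ligated one for both ratios. It was at -2.17 for Esm1 to Cdh5, against -3.35 and -2.78, and at 0.39 for Kdr to Cdh5, against -0.10 and -0.06.

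**Figure D3:**
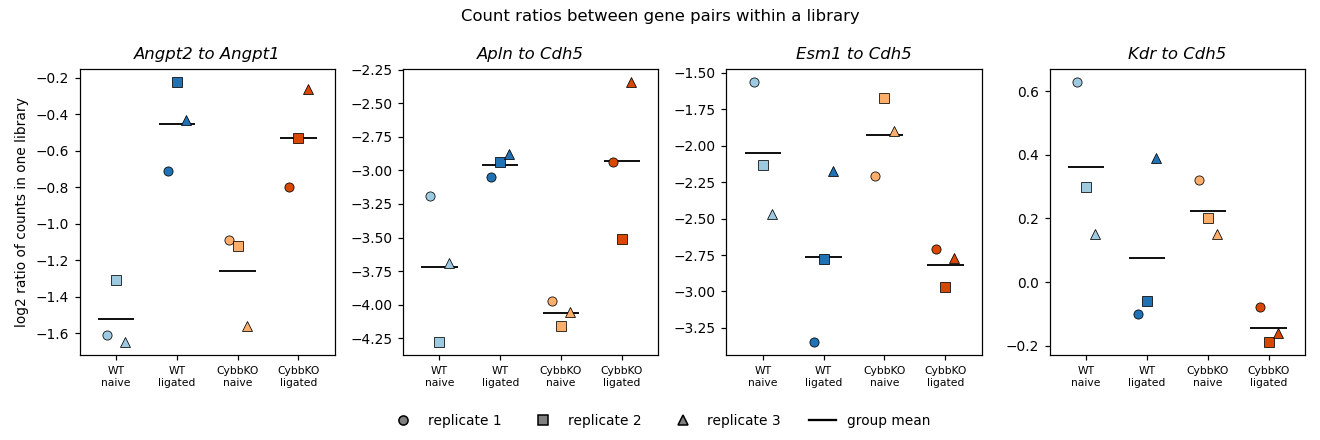
Log2 ratio of the counts of 2 genes in the same library (vertical axes, each with its own range), by group, with marker shapes for replicates and lines for group means. Angpt2 to Angpt1 is higher in all 6 ligated libraries than in all 6 naive libraries, Apln to Cdh5 rises within each genotype, and Esm1 to Cdh5 is lower in all 3 CybbKO ligated libraries than in the CybbKO naive ones.

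Genes that act with the 10 were taken from a list of 21 receptors, ligands and cofactors, of which 18 were tested and Apela, Bmp10 and Gdf2 were too low. Over both genotypes 9 of the 18 were called higher and 1 lower in ligated tissue, where 14.7% of all genes were called higher. Their median log2 fold change was 0.50 against -0.03 over all genes. Aplnr, the apelin receptor, rose most among the receptors, by 1.88 ± 0.26 (SE) on the log2 scale (edgeR adjusted p = 0.000612). It was at 12.1 to 13.1 CPM in WT naive, 32.7 to 53.4 CPM in WT ligated, 7.8 to 11.9 CPM in CybbKO naive and 18.2 to 57.2 CPM in CybbKO ligated libraries, so no naive library reached a ligated one. It was called in each genotype, in WT with an edgeR adjusted p of 0.0336 that was lost without any one of the 6 WT libraries (adjusted p = 0.124 without WT ligated replicate 3 and 0.0537 without WT naive replicate 3). Apelin and its receptor were thus higher together.

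Beside Tek, the related receptor Tie1 rose by 0.88 ± 0.17 (SE) and Ptprb, the endothelial phosphatase that dampens Tie2, by 0.87 ± 0.15 on the log2 scale (edgeR adjusted p = 0.00362 and 0.00227). Flt4, the receptor for Vegfc, rose by 0.87 ± 0.19 and the VEGF co-receptor Nrp1 by 0.54 ± 0.13 (edgeR adjusted p = 0.00663 and 0.00926), while Nrp2 did not pass the test at 0.46 ± 0.22. The ligands moved unequally. Vegfa, the main ligand of Kdr, rose by 0.50 ± 0.16 (edgeR adjusted p = 0.0398), but passed in neither genotype alone (adjusted p = 0.231 in WT and 0.187 in CybbKO) and lost its call when any of 9 libraries was left out, WT ligated replicate 3 among them (adjusted p = 0.0909, edgeR). Vegfd, the other ligand of Flt4, fell by 0.72 ± 0.18 (SE) on the log2 scale (edgeR adjusted p = 0.0129), and Vegfb at -0.38 ± 0.23 and Pgf at 0.54 ± 0.28 did not pass. Vegfd was at 11.2 to 18.9 CPM in WT naive, 9.92 to 11.8 CPM in WT ligated, 16.6 to 24.2 CPM in CybbKO naive and 7.85 to 13.3 CPM in CybbKO ligated libraries, so its groups overlapped in WT only. Vegfc and Vegfd, which share a receptor, therefore had opposite directions.

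Of 26 further endothelial identity genes, 21 were called higher and 0 lower over both genotypes, where 14.7% of all genes were called higher. Their median log2 fold change was 0.87, close to the 0.86 of the 10 genes. Tie1 and Ptprb are counted here and among the partners, as are Flt4 in the lymphatic and Pgf in the tip cell list. Pecam1, an adhesion molecule of endothelium, rose by 1.14 ± 0.13 (SE), Vwf, the clotting factor carrier, by 0.77 ± 0.20, and Plvap, of fenestrated endothelium, by 0.93 ± 0.21 on the log2 scale (edgeR adjusted p = 0.000299, 0.0154 and 0.00815). In a list of 18 tip cell and sprouting genes, 9 were called higher and 1, Unc5b, lower, with a median of 0.62. Dll4, the Notch ligand of tip cells, rose by 1.02 ± 0.21 and Cxcr4, also a leukocyte receptor, by 1.62 ± 0.32 (edgeR adjusted p = 0.00532 and 0.00448), while Pdgfb, which recruits pericytes, was at 0.30 ± 0.20 and did not pass. The tip cell genes, like Esm1 among the 10, thus did not all move.

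Of 8 tested lymphatic genes, 5 were called higher and 0 lower, again beside the 14.7% of all genes called higher over both genotypes. Prox1, the lymphatic master regulator, was at 1.24 ± 0.24 (SE, edgeR adjusted p = 0.00389) and Lyve1 at 0.23 ± 0.17, which did not pass. Of 14 mural cell genes, 5 were called higher and 0 lower, and 9 estimates were above 0; called higher were, among others, the pericyte genes Rgs5 at 1.17 ± 0.25 and Pdgfrb at 1.14 ± 0.20 (edgeR adjusted p = 0.00599 and 0.00231). Pdgfrb is also made by fibroblasts. Other mural genes had estimates under 0 and did not pass, namely Notch3 at -0.24, Cspg4 at -0.16 and the smooth muscle genes Cnn1 at -0.39, Myh11 at -0.09 and Lmod1 at -0.08. Of 8 endothelial activation genes, 6 were called higher: P-selectin (Selp) by 1.85 ± 0.37, E-selectin (Sele) by 1.45 ± 0.31, Vcam1 by 0.96 ± 0.18 and Icam1 by 0.83 ± 0.22 on the log2 scale, together with Ackr1 and Ccl2, with edgeR adjusted p from 0.000916 to 0.0184. Between the genotypes in ligated tissue, 0 genes of any of these lists were called by edgeR. All 8 endothelial activation genes had estimates above 0 there, as did 53.4% of all genes. Their median was 0.79, against medians of 0.10 to 0.28 in the other vascular lists and 0.01 over all genes. The log2 difference was 0.82 ± 0.26 (SE) for Vcam1 (unadjusted p = 0.00788, edgeR adjusted p = 1) and 0.62 ± 0.31 for Icam1 (unadjusted p = 0.0695, edgeR adjusted p = 1). The libraries of Vcam1 and Icam1 did not overlap, beside the 7.84% of all genes without overlap. Those of Sele and Selp did overlap, with log2 differences of 0.88 ± 0.43 and 0.87 ± 0.51 (SE). CybbKO ligated replicate 2 lay below all WT ligated libraries for Sele (14.7 against 17.9 to 31.8 CPM) and Selp (38.3 against 42.2 to 101 CPM). Within WT the counts called higher were 2 of 18 for the partners, 4 of 26 for endothelial identity, 2 of 18 for tip cell genes and 0 of 8 for endothelial activation, and without WT ligated replicate 3 they were 0, 0, 1 and 0. Without WT naive replicate 3 they were 0, 9, 5 and 0, and without CybbKO ligated replicate 2 they were 2, 6, 3 and 2.

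**Figure D4:**
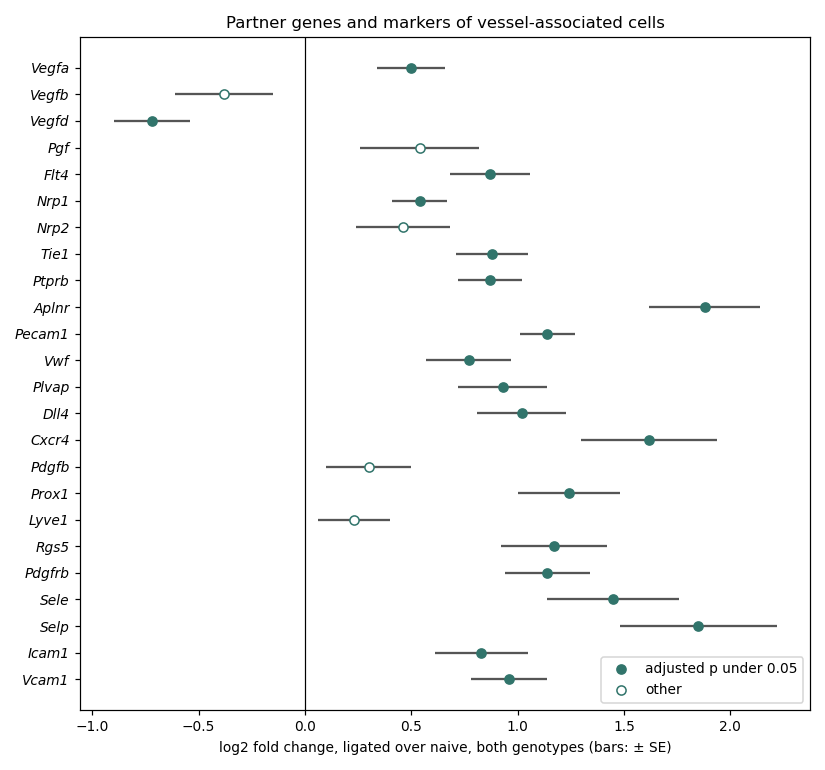
Log2 fold change of ligated over naive tissue over both genotypes (horizontal axis; bars are ± SE) for 24 genes that act with the 10 or mark vessel-associated cells; filled points passed an adjusted p of 0.05 in edgeR. Aplnr at 1.88 and Selp at 1.85 lie highest and Vegfd at -0.72 lowest.

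Markers of other cell types moved with the 10 genes. Over both genotypes 7 of 9 fibroblast, 8 of 8 neutrophil and 8 of 8 macrophage genes were called higher, while 3 of 10 oral epithelial genes (Krt1, Krt10 and Krt76) were called lower. Of all 15046 genes tested, 3668 were called over both genotypes, 2215 of them higher and the rest lower. The summed fibroblast level was 1473 to 3036 CPM in naive and 4008 to 10601 CPM in ligated libraries, and the summed neutrophil level was 330 to 900 CPM in naive and 1315 to 11554 CPM in ligated libraries. The summed oral epithelial level was 102850 to 145857 CPM in naive and 76341 to 125543 CPM in ligated libraries. The summed level of the 10 genes was 109 to 141 CPM in naive and 174 to 292 CPM in ligated libraries. CybbKO ligated replicate 2, lowest of its group for the 10 genes at 181 CPM, was also lowest of its group for fibroblast and neutrophil markers (4008 and 2463 CPM) and highest for epithelial markers (125543 CPM). Of 8 skeletal muscle genes 1 was called higher, of 6 tested salivary gland genes 1 lower, and of 5 red blood cell genes 0 in either direction. The red blood cell genes had a median log2 fold change of 1.08 in WT and -0.76 in CybbKO, where 5 of 5 were called lower without CybbKO ligated replicate 2. Their summed level was 1198 CPM in WT ligated replicate 3 and 808 CPM in CybbKO ligated replicate 2, against 34.3 to 178 CPM in the other ligated libraries. Between the ligated groups the summed neutrophil level averaged 6113 CPM in CybbKO and 2508 CPM in WT. Estimates were above 0 for 8 of 8 neutrophil genes (median 1.41), as for 53.4% of all genes, and 0 were called by edgeR. The part of these shifts in tissue makeup in the values of the 10 genes was not tested.

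**Figure D5:**
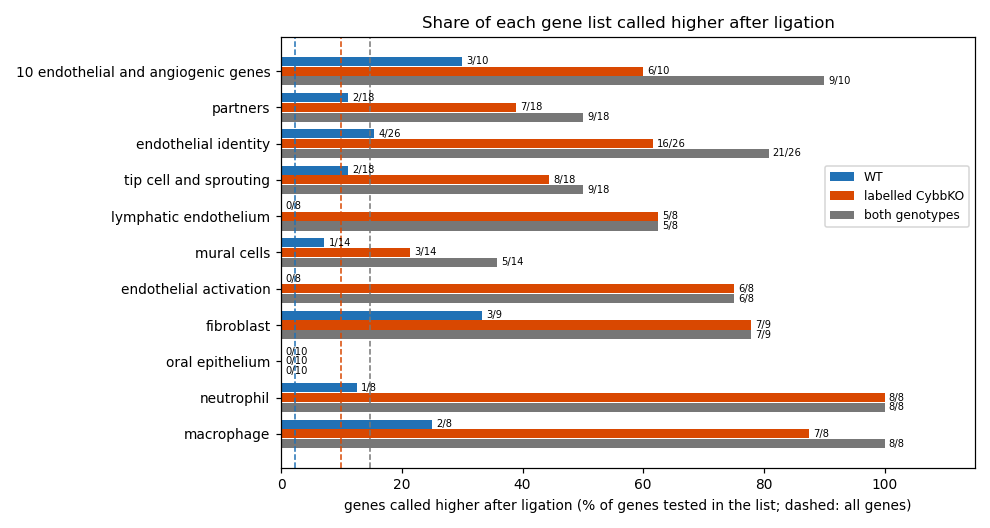
Share of the tested genes of each list that were called higher after ligation (horizontal axis, percent, from 0), in WT (blue), in the libraries labelled CybbKO (orange) and over both genotypes (grey), with the counts beside the bars and dashed lines for the share of all genes tested. The 10 genes reached 3, 6 and 9 called, and fibroblast, neutrophil and macrophage lists also exceeded the dashed lines.

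The genes with the profile most like each of 4 of the 10 genes were ranked by Pearson correlation of log2 CPM over the 12 libraries, among 13472 genes. These correlations are descriptions: the points share the ligated and naive groups and the same libraries. For Cdh5 they were Robo4, Lgmn, Fgd5, Arap3 and Dysf, each at r = 0.98, of which Robo4 is an endothelial guidance receptor. For Kdr they were Ptprm, Ctsk, Nup37, Nid2 and Chn1 at r = 0.98. For Kdr and Ctsk, a protease of osteoclasts and fibroblasts, r was 0.98 within the 6 ligated libraries and 0.27 within the 6 naive ones, whereas for Kdr and Ptprm it was 0.95 and 0.96. For Angpt2 they were Fcgr2b, an Fc receptor of leukocytes and some endothelium, at r = 0.99, and C1s1, Gab2, Prickle1 and Klf7 at 0.98. For Esm1 they were Cd200, Nr2f2, a transcription factor of veins and lymphatics, and Ppp1r16b at r = 0.95, then Tslp and Cxcl5 at 0.94. None of the 20 names was shared between the 4 genes.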

How the data were processed

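Gene expression was measured in 12 gingival libraries, grouped from the sample labels, with 3 per group. The values are raw counts per gene that the authors deposited after alignment to GRCm38. The study's methods name STAR and featureCounts with reverse strand, while the submitters' processing notes name HTSeq 0.10.0 and FastQC 0.10.1, so the counting tool is not settled. Symbols, exon lengths and strands came from GENCODE M21, which matched 21939 of 21965 genes. CPM used TMM-scaled library sizes.

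All 12 libraries entered one edgeR 4.0.16 quasi-likelihood fit (R 4.3.3) with a mean per group, TMM scaling and filterByExpr, which left 15046 genes; calls used a Benjamini-Hochberg adjusted p under 0.05 over those genes. SE is the log2 fold change divided by the root of the F statistic. The code was tested on simulated data. Ratios added 0.5 to each count and were tested by exact permutation (SciPy 1.17.1). Alternatives were DESeq2 1.42.0, other scalings and filters, a replicate block and each library left out. Library totals of 27958819 to 42613423 counts put the 10 genes at 32 to 2681 counts per library.

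The 10 genes and the gene lists were chosen with earlier results of these data known. The genes named are the 10, 10 partners and 14 vascular markers fixed by name, Cybb, and the 5 nearest profiles of Kdr, Cdh5, Angpt2 and Esm1 at a mean of at least 1 CPM; Eif2s3y, Ackr1, Ccl2, Unc5b, 5 mural genes and the 3 keratins were named after their values were seen. The series gives 3 mice per group; the labels do not tie a library to a mouse, so p-values measure the spread between these libraries.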

Additional observations from a re-analysis of the deposited data

How the results depend on the processing

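Over both genotypes the number of the 10 genes called stayed between 7 and 10 in every alternative. The WT count was 3 and became 6 with DESeq2, and 0 to 6 with one library left out; for all genes the WT count of 481 became 1374 with DESeq2 and 271 with the replicate block, and 27 to 900 with one library left out. In the libraries labelled CybbKO, leaving out one library gave 3 to 7 of the 10 genes and 837 to 2949 of all genes. Genes called between genotypes in ligated tissue were 1, or 18 with DESeq2, 0 with the 6 libraries alone and 0 to 2 with one left out; in naive tissue DESeq2 called 2; the interaction gave 0 to 1. With the replicate block 2, 6 and 8 of the 10 genes were called in WT, CybbKO and both, losing Kdr in WT and Angpt1 over both genotypes (adjusted p = 0.055, edgeR). Replicate numbers share only a number: deviations of same-numbered libraries correlated between -0.228 and 0.277.

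The directions that turned belonged to values that passed no test. The Kdr genotype difference in ligated tissue was -0.01 with library size scaling. With one library left out, that difference ran from -0.15 to 0.34 for Kdr, -0.10 to 0.29 for Flt1, -0.12 to 0.43 for Vegfc, -0.05 to 0.82 for Apln and -0.19 to 0.64 for Esm1. In naive tissue it ran from -0.09 to 0.05 for Kdr, -0.07 to 0.22 for Cdh5 and -0.16 to 0.40 for Eng. The interaction ran from -0.15 to 0.35 for Kdr, -0.29 to 0.10 for Flt1, -0.06 to 0.33 for Tek, -0.29 to 0.25 for Vegfc, -0.09 to 0.46 for Eng and -0.46 to 0.37 for Esm1. The WT response ran from -0.09 to 0.29 for Angpt1, -0.18 to 0.42 for Nrp2, -0.20 to 0.47 for Pdgfb, -0.01 to 0.76 for Pgf and -0.38 to 0.07 for Vegfb. The ratio shifts over both genotypes ran from 0.82 to 0.96 for Angpt2 to Angpt1, 0.80 to 1.09 for Apln to Cdh5, -0.95 to -0.65 for Esm1 to Cdh5 and -0.40 to -0.26 for Kdr to Cdh5, and the WT shift of Angpt2 to Cdh5 from -0.35 to 0.20. Calls on these ratios changed with the libraries kept. Angpt2 to Angpt1 and Apln to Cdh5 each lost the call without some single libraries. Esm1 to Cdh5 and Kdr to Cdh5 gained one without WT ligated replicate 3.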
